A study of Arabidopsis thaliana with 8 samples.

Results

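The genes described here are 10 Arabidopsis thaliana mRNA loci that are textbook targets of the microRNAs (miRNAs) of copper, phosphate and sulfate nutrition, out of 24859 loci in the count table. They were taken by their AGI locus codes from a list of known targets. The rule used no measured value, but the genes were chosen with earlier results of these data known. CSD1 (AT1G08830), CSD2 (AT2G28190) and CCS1 (AT1G12520) belong to miR398. LAC2 (AT2G29130), LAC4 (AT2G38080) and LAC17 (AT5G60020) belong to miR397, ARPN (AT2G02850) to miR408, PHO2 (AT2G33770) to miR399, and APS1 (AT3G22890) and APS4 (AT5G43780) to miR395. All 10 passed the filter on low counts.

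Small RNAs were sequenced from 4 genotypes, namely WT, both single mutants (urt1-1 or xrn4-3) and the urt1-1 xrn4-3 double mutant, with 2 libraries each that the labels call biological replicates. All plants were of the Col-0 accession, and the mutants carry T-DNA insertions in URT1, a terminal uridylyltransferase that adds uridines to mRNA tails, and in XRN4, the cytosolic 5′-3′ exoribonuclease. Each mutation was represented by a single allele, so an effect of the insertion line and an effect of the gene cannot be told apart. Whole plantlets were collected after 24 days in vitro on Murashige and Skoog medium, in days of 12 h at 22 °C and nights of 12 h at 18 °C, and no genotype was grown on low copper, phosphate or sulfate.

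In plants, miRNAs guide Argonaute proteins to near-complementary mRNAs, which are then cleaved or translationally repressed. When copper is scarce, the transcription factor SPL7 switches on miR397, miR398 and miR408, which spare copper by repressing dispensable copper proteins. PHR1 switches on miR399 when phosphate is scarce, and SLIM1 is needed for the rise of miR395 when sulfate is scarce. A cleaved or otherwise aberrant mRNA can also be copied into double-stranded RNA and diced into small interfering RNAs, and small RNA reads at an mRNA locus can include such products as well as fragments of the mRNA itself.

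The mature miRNAs and the sites that pair with them are shown because they define the 10 genes. Sequences and their coordinates were read from the RefSeq genome annotation (build TAIR10.1). In each miRNA the seed, bases 2 to 8, is in capitals, and 1 member stands for each family.
miR395a: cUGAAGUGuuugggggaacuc
miR397a: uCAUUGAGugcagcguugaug
miR398a-3p: uGUGUUCUcaggucaccccuu
miR399f: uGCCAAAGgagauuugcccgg
miR408-3p: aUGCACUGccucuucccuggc
Leaving aside the 5p arms, the seed was shared within each family and differed between the families. The miR395 genes gave 2 mature forms, with miR395a, miR395d and miR395e alike and miR395b, miR395c and miR395f as cUGAAGUGuuuggggggacuc. The mature miRNAs are encoded at chr1:9363206-9363226 (minus strand, miR395a), chr4:2625960-2625980 (plus strand, miR397a), chr2:1041012-1041032 (plus strand, miR398a), chr2:14445084-14445104 (plus strand, miR399f) and chr2:19319933-19319953 (plus strand, miR408).

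The site with the lowest penalty in each target transcript was found without gaps, counting 1 for a mismatch and 0.5 for a G:U pair, doubled at miRNA positions 2 to 13. Capitals mark the bases that do not form a Watson-Crick pair with the family member that gave the lowest penalty. That member was miR395a for APS1 and APS4, miR397a for LAC2, LAC4 and LAC17, and miR408-3p for ARPN. It was miR398a-3p for CSD1 and CCS1, and miR398b-3p or miR398c-3p, which are alike, for CSD2.
CSD1: aagggguUUccugagaUcaca
CSD2: UGCgggugaccugGgaaACAU
CCS1: aUUgggAgaccugGgaacacU
LAC2: AaucaaUgcugcacucaauga
LAC4: AGucaacgcugcacuUaauga
LAC17: AaucaaUgcugcacuUaauga
ARPN: CcAagggaagaggcagugcau
APS1: gaguuccUccaaacUcuucaU
APS4: gaguuccUccaaacacuucaU
The APS1 site (chr3:8113164-8113184, plus strand, exon 1 of 5, coding sequence) had a penalty of 3.5, with no Watson-Crick pair at miR395a positions 1, 7 and 14. The APS4 site (chr5:17591121-17591141, minus strand, exon 1 of 5, coding sequence) had a penalty of 1.5 and lacked such a pair at positions 1 and 14 only, so that the pair differed at position 7, inside the seed. The 3 laccase sites lay in exon 5 of 6 in the coding sequence, at chr2:12526364-12526384 (minus strand, LAC2), chr2:15936120-15936140 (plus strand, LAC4) and chr5:24169068-24169088 (plus strand, LAC17), with penalties of 1.5, 2.5 and 2.5. The ARPN site (chr2:827696-827716, minus strand, exon 1 of 2, coding sequence) had a penalty of 2.0.

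The miR398 sites paired less well than those of the other families. The CSD1 site lay in the 5′ untranslated region, was split by an intron (chr1:2827177-2827685, plus strand) and had a penalty of 5.0, as did the CCS1 site in the last exon of the coding sequence (chr1:4267521-4267541, minus strand). The CSD2 window (chr2:12015572-12015592, plus strand, exon 4 of 8, coding sequence) had a penalty of 10, a score reached or bettered in 30% of 31464 genes scanned with the same miRNAs. For CSD1 and CCS1 that share was 0.0286%. A search without gaps does not see a site with a bulged base, and the CSD2 window was found only once the 5p arms of the miRNA precursors had been left out.

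PHO2 was the only one of the 10 with several sites of penalty 3 or lower. Its 5 sites lay on the minus strand in the 5′ untranslated region, between chr2:14281770-14281790 and chr2:14282106-14282126, and are listed in transcript order.
PHO2 site 1: UagggcaaaucuUcuuuggca
PHO2 site 2: UagggcaUaucuccuuuggca
PHO2 site 3: UUgggcaaaucuccuuuggca
PHO2 site 4: UcgAgcaaaucuccuuuggca
PHO2 site 5: UagAgcaaaucuccuuuggca
The middle one had a penalty of 1.0 against miR399f. The others had 1.5, site 4 against miR399f, and sites 1, 2 and 5 against miR399a, which is not printed above. Capitals in each PHO2 site refer to the miRNA named here for that site. Site letters describe the reference only, and cleavage was not measured in these libraries.

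The libraries held between 6045353 and 30064224 reads counted at mRNA loci. Values are given as counts per 1000000 such reads (CPM) after TMM scaling, which corrects library sizes for differences in composition. Small RNA counts do not report mRNA levels, so neither the tissue nor the mutations could be checked against marker genes. At URT1 (AT2G45620) the reads were 10.2 and 15.7 CPM in WT, 5.93 and 8.04 in urt1-1, 13.99 and 271 in xrn4-3, and 9.19 and 5.94 in urt1-1 xrn4-3, so that xrn4-3 replicate 2 stood apart. At XRN4 (AT1G54490) they were 12.96 and 11.4 CPM in WT, 12.4 and 11.1 in urt1-1, 9.96 and 8.37 in xrn4-3, and 7.51 and 6.25 in urt1-1 xrn4-3. Every library with the xrn4-3 mutation lay below every library without it. The XRN4 log2 fold change in the double mutant against WT was -0.83 (SE 0.38, edgeR likelihood ratio test, adjusted p = 0.161).

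In WT, small RNA reads differed widely between the 10 genes. Per kilobase of locus, ARPN had 204 and 206 CPM in the 2 WT libraries, more than 98.5% of the loci tested. APS1 followed with 29.8 and 23.1 CPM per kb, APS4 with 5.01 and 6.86, and PHO2 with 4.73 and 3.73. The WT libraries of each of these 4 genes did not overlap with those of the next. The remaining genes, LAC2, CSD1, CCS1, CSD2, LAC17 and LAC4 in descending order of their means, lay between 0.798 and 2.59 CPM per kb. Among them, the libraries of LAC2 and CSD1 overlapped, as did those of CCS1 and CSD2, CSD2 and LAC17, and LAC17 and LAC4.

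**Figure D1:**
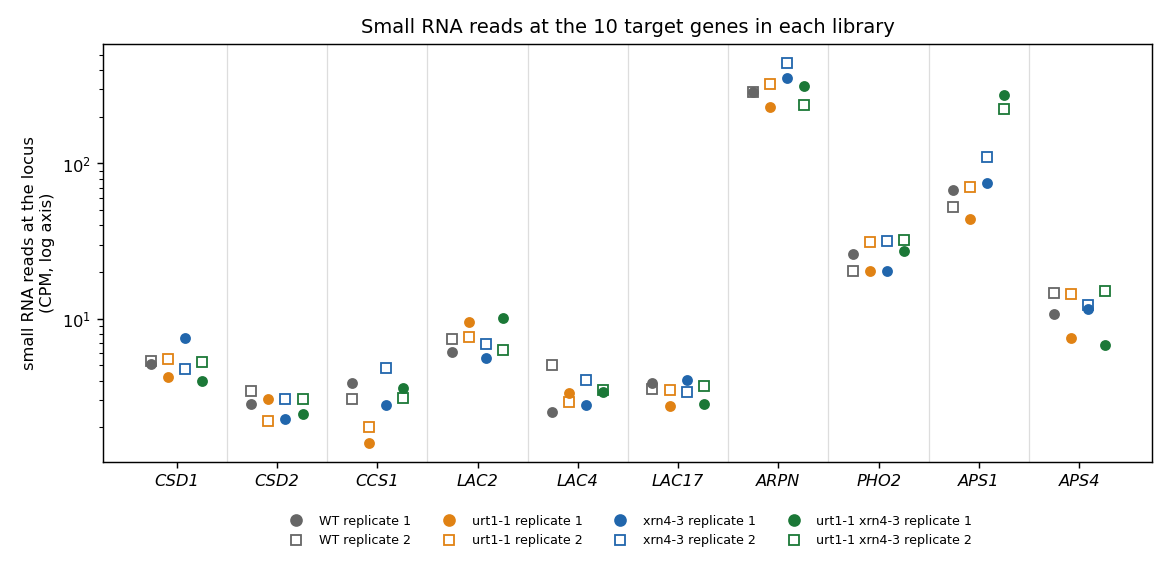
Small RNA reads (CPM on a log axis) at each of the 10 target genes. Each point is 1 library, coloured by genotype, with filled circles for replicate 1 and open squares for replicate 2. For APS1 the urt1-1 xrn4-3 libraries, at 277 and 223 CPM, lie above the other 6 libraries, which reach 109 CPM. For PHO2 both lie above both WT points, and for the other genes they overlap with WT.

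APS1 was the only one of the 10 genes called in any comparison. It encodes a plastid ATP sulfurylase, the enzyme that activates sulfate for assimilation, and lies at chr3:8112723-8114992 on the plus strand (TAIR10 coordinates of the count table). Its small RNA reads were 67.6 and 52.4 CPM in WT, 43.8 and 70.3 in urt1-1, 74.5 and 109 in xrn4-3, and 277 and 223 in urt1-1 xrn4-3. The double mutant libraries were the highest of the 8, the xrn4-3 libraries came next, and those of WT and urt1-1 overlapped. In reads, the double mutant libraries held 3616 and 7353 at APS1, and the others between 303 and 1267.

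APS1 small RNAs rose 4.16-fold in urt1-1 xrn4-3 against WT (log2 fold change 2.06, SE 0.51, edgeR likelihood ratio test, adjusted p = 0.0020), with a 95% interval of 2.08- to 8.34-fold. Across all 24722 loci tested, 11.1% were called in this comparison and 10.01% were raised, which is the share that 1 gene of 10 makes. They rose 4.38-fold against urt1-1 (log2 fold change 2.13, SE 0.51, adjusted p = 0.0016), where 9.28% of loci were called and 8.36% were raised. Both comparisons use the same double mutant libraries and are not independent of each other. With edgeR's quasi-likelihood test the adjusted p was 0.0290 against WT, where 7.31% of loci were raised, and 0.0299 against urt1-1, where 5.99% were.

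Each call was lost when 1 control library was left out. Without WT replicate 2 the log2 fold change against WT was 1.89 with an adjusted p of 0.109 by the likelihood ratio test in edgeR, and without urt1-1 replicate 1 that against urt1-1 was 1.83 with an adjusted p of 0.162. Against xrn4-3, APS1 had a log2 fold change of 1.44 (SE 0.51), with both double mutant libraries above both xrn4-3 libraries, and an adjusted p of 0.151 in edgeR. In whole plantlets, a change in the number of cells that make these reads and a change per cell cannot be told apart.

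Neither single mutation changed APS1 past the threshold. In xrn4-3 against WT the log2 fold change was 0.62 (SE 0.51, edgeR adjusted p = 0.781), with both xrn4-3 libraries above both WT libraries. In urt1-1 against WT it was -0.07 (SE 0.51, edgeR adjusted p = 1.0). The interaction, which asks whether loss of URT1 had another effect in the xrn4-3 background than in WT, was 1.52 on the log2 scale (SE 0.72, unadjusted p = 0.0374 and adjusted p = 0.910 in edgeR). It did not pass the threshold after correction.

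APS4, the other miR395 target and also an ATP sulfurylase gene, had 10.7 and 14.7 CPM in WT, 7.52 and 14.4 in urt1-1, 11.6 and 12.2 in xrn4-3, and 6.74 and 15.2 in urt1-1 xrn4-3. All genotypes overlapped. Its log2 fold change in the double mutant against WT was -0.20 (SE 0.49, edgeR adjusted p = 0.862), with a 95% interval of 0.447- to 1.69-fold. APS4 overlaps AT5G43770 on the opposite strand by 74 bp, and the counting used no strand, so reads in that stretch could come from either gene.

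The ATP sulfurylase genes share sequence, and reads that match several loci equally well were kept. Of the 21-nt windows of APS1, 3.05% occur elsewhere in the genome, 57 windows of them in APS3 (AT4G14680). For the other 9 genes this share was 0.688% or lower. APS3 carries the same site letters as APS1 (chr4:8414958-8414978, minus strand). Its reads were 14.7 and 6.77 CPM in WT and 16.9 and 12.5 CPM in the double mutant. The log2 fold change was 0.45 (SE 0.49, edgeR adjusted p = 0.655). The difference between APS1 and its relatives was not tested as such.

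**Figure D2:**
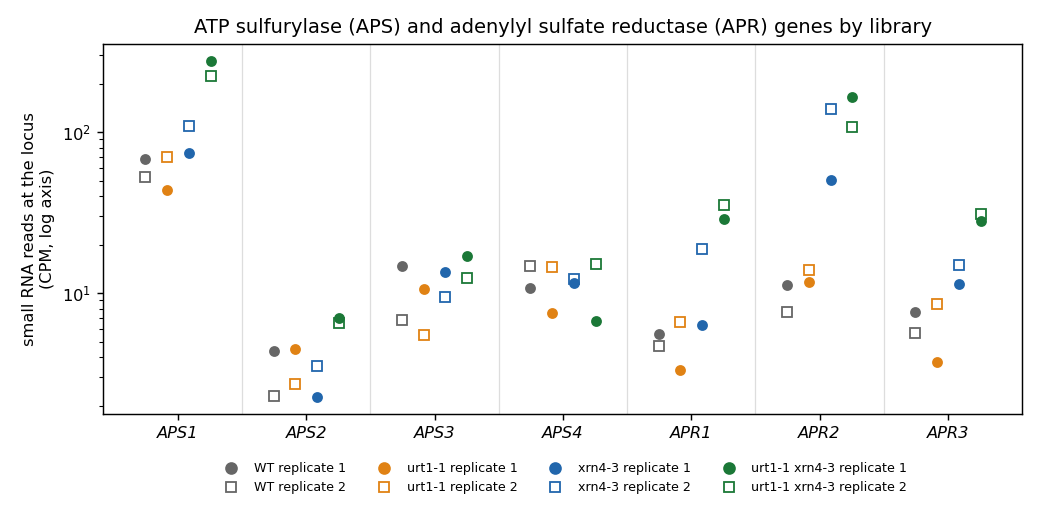
Small RNA reads (CPM on a log axis) at the ATP sulfurylase genes APS1 to APS4 and the adenylyl sulfate reductase genes APR1 to APR3. Each point is 1 library, coloured by genotype, with filled circles for replicate 1 and open squares for replicate 2. The urt1-1 xrn4-3 libraries lie above both WT libraries for APS1, APS2, APR1, APR2 and APR3, and overlap with WT for APS3 and APS4.

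PHO2 encodes a ubiquitin-conjugating enzyme that limits phosphate uptake and loading by directing phosphate transporters to degradation. Its locus (chr2:14277558-14283040, minus strand) had 25.9 and 20.4 CPM in WT, 20.3 and 31.4 in urt1-1, 20.3 and 31.7 in xrn4-3, and 27.4 and 32.0 in urt1-1 xrn4-3. The double mutant libraries were both higher than either WT library, which held for 30.1% of all loci tested. The log2 fold change was 0.36 (SE 0.46, edgeR adjusted p = 0.714), with an interval of 0.685- to 2.39-fold.

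ARPN encodes plantacyanin, a small blue copper protein of the cell wall, and had the most small RNA reads of the 10 genes in every library. At its locus (chr2:826404-827812, minus strand) there were 287 and 291 CPM in WT, 231 and 326 in urt1-1, 357 and 444 in xrn4-3, and 318 and 239 in urt1-1 xrn4-3. The xrn4-3 libraries were the highest, above both those of WT and those of the double mutant. Neither difference passed the test (log2 fold change 0.47, SE 0.51, edgeR adjusted p = 0.868 against WT; -0.52, SE 0.51, adjusted p = 0.850 for the double mutant against xrn4-3).

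The miR398 targets had few reads, and none changed past the threshold. CSD1 and CSD2 encode the cytosolic and the chloroplast copper/zinc superoxide dismutase. CSD1 (chr1:2827061-2829315, plus strand) had 5.11 and 5.31 CPM in WT, 4.20 and 5.48 in urt1-1, 7.56 and 4.75 in xrn4-3, and 3.98 and 5.25 in urt1-1 xrn4-3. CSD2 (chr2:12014498-12016569, plus strand) had 2.81 and 3.44 CPM in WT, 3.04 and 2.19 in urt1-1, 2.27 and 3.02 in xrn4-3, and 2.45 and 3.06 in urt1-1 xrn4-3. For both genes each mutant overlapped with WT, and the log2 fold changes in the double mutant against WT were -0.16 and -0.15.

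CCS1, the chaperone that loads copper into both dismutases, had the lowest single value of the 10 genes. At its locus (chr1:4267106-4268926, minus strand) there were 3.85 and 3.02 CPM in WT, 1.59 and 2.01 in urt1-1, 2.77 and 4.83 in xrn4-3, and 3.60 and 3.09 in urt1-1 xrn4-3. Both urt1-1 libraries, at 11 reads each, lay below the libraries of the other genotypes. The log2 fold change in urt1-1 against WT was -0.95 (SE 0.50, edgeR unadjusted p = 0.0553, adjusted p = 1.0), and in the double mutant against urt1-1 it was 0.89 (SE 0.49, edgeR adjusted p = 0.293).

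The laccases are multicopper oxidases of the cell wall, and LAC4 and LAC17 act in lignin formation in the stem. LAC2 (chr2:12524889-12527747, minus strand) had 6.07 and 7.40 CPM in WT, 9.55 and 7.67 in urt1-1, 5.55 and 6.91 in xrn4-3, and 10.04 and 6.25 in urt1-1 xrn4-3. LAC4 (chr2:15934460-15937616, plus strand) had 2.52 and 5.002 CPM in WT, 3.33 and 2.92 in urt1-1, 2.77 and 4.06 in xrn4-3, and 3.37 and 3.46 in urt1-1 xrn4-3. The 2 WT libraries of LAC4 enclosed all the others. LAC17 (chr5:24167996-24170462, plus strand) had 3.85 and 3.54 CPM in WT, 2.75 and 3.47 in urt1-1, 4.03 and 3.37 in xrn4-3, and 2.83 and 3.67 in urt1-1 xrn4-3. Double mutant and WT libraries overlapped for all 3, and the log2 fold changes were 0.26 for LAC2, -0.12 for LAC4 and -0.17 for LAC17.

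**Figure D3:**
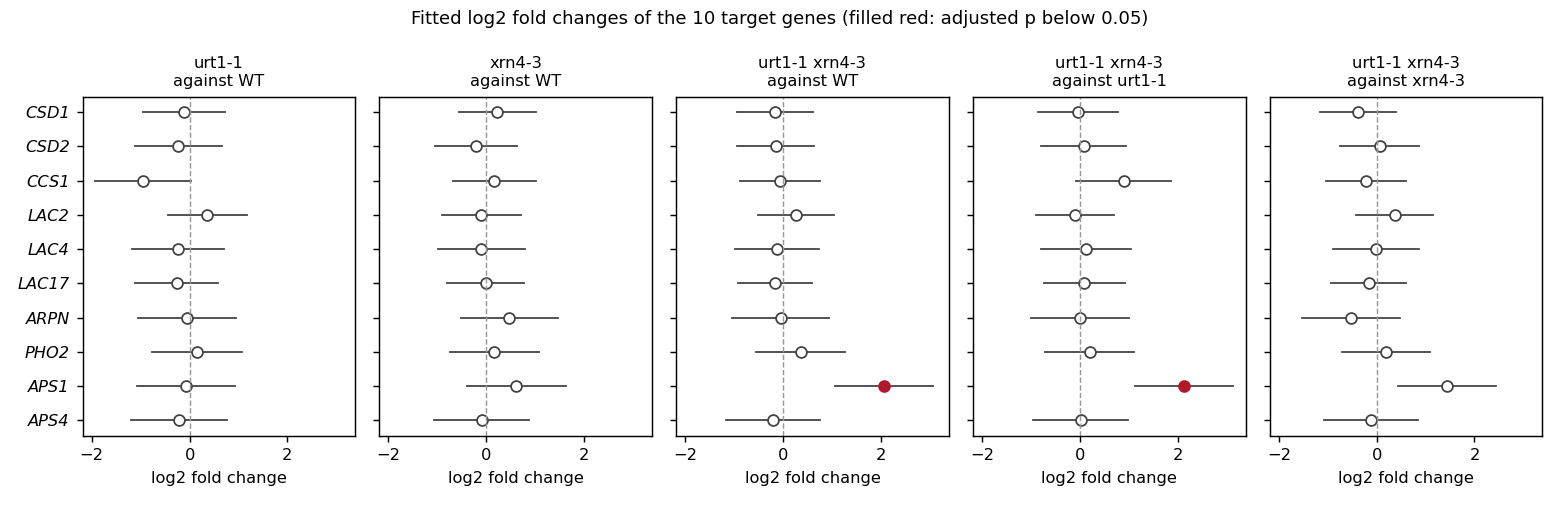
Fitted log2 fold changes of the 10 target genes in 5 comparisons, with bars for the 95% interval of each estimate. Red filled points passed the threshold of 0.05 on the adjusted p, and open points did not. APS1 is called in urt1-1 xrn4-3 against WT (2.06) and against urt1-1 (2.13), and the intervals of the other genes include 0 in all 5 comparisons.

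Counted over the 10 genes, the likelihood ratio test in edgeR raised 1 and lowered 0 in urt1-1 xrn4-3 against WT, and did the same against urt1-1. The median log2 fold change against WT was -0.09 for the 10 genes and 0.01 for all loci tested. Of the 10, 2 had both double mutant libraries above both WT libraries and 0 had both below, against 30.1% and 23.02% of all loci. In xrn4-3 against WT 0 of 10 were called, beside 4.45% of all loci, with 0 at an unadjusted p under 0.05 and 0 by the quasi-likelihood test or DESeq2.

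In urt1-1 against WT 0 of 10 were called in edgeR, beside 0.0283% of all loci, again with 0 at an unadjusted p under 0.05 (1 with the quasi-likelihood test, which was CCS1) and 0 called by the quasi-likelihood test or DESeq2. In urt1-1 xrn4-3 against xrn4-3 0 of 10 were called, beside 2.04% of all loci, and in the interaction 0 of 10, beside 0.121%. In each of these, 1 gene, APS1, had an unadjusted p under 0.05, and the quasi-likelihood test and DESeq2 called 0. With 2 libraries per genotype the precision was limited: apart from APS1, the 95% intervals in the double mutant against WT ran from 0.447-fold to 2.39-fold.

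The sign of the small differences depended on how the libraries were scaled. When reads mapped to the genome were used as library sizes, the median log2 fold change of all loci in urt1-1 xrn4-3 against WT was 0.74 (0.01 with TMM scaling), and all 10 genes had positive log2 fold changes where 3 had with TMM scaling. Relative to the median of all loci, APS1 was then higher by 2.04, against 2.05 with the quasi-likelihood fit under TMM scaling. With genome-mapped sizes CCS1 was also called in the double mutant against urt1-1 (log2 fold change 1.68, edgeR adjusted p = 0.0288). The median of all loci was then 0.83 (0.02 with TMM scaling), and 5177 of 24686 loci were called (2293 of 24722 with TMM scaling).

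Other targets of the same miRNAs gave no call under TMM scaling. The list held COX5b-1 (miR398), LAC3, LAC12 and LAC13 (miR408), and APS3 and SULTR2;1 (miR395), and in the double mutant against WT edgeR called 0 of 6, with 1 at an unadjusted p under 0.05 and 0 called by the quasi-likelihood test or DESeq2. That gene was LAC13, chosen here after its value was seen, with a log2 fold change of 1.07 (SE 0.47, edgeR adjusted p = 0.132). The median log2 fold change of the 6 was 0.52, beside 0.01 for all loci. Of all loci, 11.1% were called in the double mutant against WT by edgeR's likelihood ratio test. With genome-mapped reads as library sizes, edgeR called 3 of the 6, namely LAC3, LAC13 and COX5b-1. The median of all loci was then 0.74, and 4949 of 24686 loci were called. Of 14 relatives of the targets in the same gene families, 0 were called by edgeR, the quasi-likelihood test or DESeq2, and the median was -0.21. By edgeR's likelihood ratio test 2 had an unadjusted p under 0.05, named here after their values were seen. They were APS2, at a log2 fold change of 0.99 (SE 0.44), and LAC11, at -1.09 (SE 0.44), with adjusted p of 0.145 and 0.101. With genome-mapped sizes edgeR called 1 of the 14, APS2 (log2 fold change 1.80, adjusted p = 0.0075). A fit of only the genotypes compared also called 1.

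Other genes of the same nutrient pathways included several that were called. Their lists were chosen with earlier results of these data known, so the counts beside the share of all loci are a description only. Of 11 copper genes, 2 rose in urt1-1 xrn4-3 against WT and 0 fell, beside 10.01% of all loci raised. COPT1 and COPT2 encode copper importers of the plasma membrane. COPT1 (AT5G59030) had 6.52 and 6.15 CPM in WT, 7.81 and 7.86 in urt1-1, 25.7 and 38.1 in xrn4-3, and 47.0 and 23.7 in the double mutant. COPT2 (AT3G46900) had 2.74 and 3.65 CPM in WT, 3.18 and 3.11 in urt1-1, 24.2 and 57.5 in xrn4-3, and 57.9 and 20.2 in the double mutant. For both, every library with the xrn4-3 mutation lay above every library without it.

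COPT2 rose 12.2-fold in the double mutant (log2 fold change 3.61, SE 0.60, edgeR adjusted p = 1.87e-06) and 12.8-fold in xrn4-3 (3.68, SE 0.60, adjusted p = 3.83e-06) against the same WT libraries. COPT1 rose 5.56-fold (2.48, SE 0.48, edgeR adjusted p = 3.03e-05) and 5.03-fold (2.33, SE 0.48, adjusted p = 2.64e-04). In the double mutant against xrn4-3 their log2 fold changes were -0.07 for COPT2 (SE 0.58) and 0.14 for COPT1 (SE 0.47).

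Of 8 sulfur genes, 3 rose in the double mutant against WT and 0 fell, again beside 10.01% of all loci raised. APR1 (AT4G04610), APR2 (AT1G62180) and APR3 (AT4G21990) encode plastid adenylyl sulfate reductases, which act on the product of ATP sulfurylase. Sequence shared between these 3 genes was not measured, so the same reads could be counted at several of them. APR2 had 11.2 and 7.61 CPM in WT, 11.7 and 13.9 in urt1-1, 50.1 and 139 in xrn4-3, and 166 and 108 in urt1-1 xrn4-3. It rose 14.5-fold in the double mutant (log2 fold change 3.86, SE 0.57, edgeR adjusted p = 1.25e-07) and 10.02-fold in xrn4-3 (3.33, SE 0.57, adjusted p = 1.40e-05). APR1 and APR3 had 5.56 and 4.69, and 7.63 and 5.63 CPM in WT, against 29.0 and 35.4, and 28.1 and 31.1 CPM in the double mutant.

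APR1 rose 6.26-fold (log2 fold change 2.65, SE 0.54) and APR3 4.45-fold (2.15, SE 0.46) in urt1-1 xrn4-3 against WT, with edgeR adjusted p of 8.95e-05 and 1.55e-04. Neither passed the threshold in xrn4-3 against WT, where their log2 fold changes were 1.30 (SE 0.54) and 0.99 (SE 0.47). Without xrn4-3 replicate 1, APR1 was called there (log2 fold change 1.88, edgeR adjusted p = 0.0045). Without xrn4-3 replicate 2, APR1 was called in the double mutant against xrn4-3 (2.35, edgeR adjusted p = 0.0032).

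Of 8 phosphate genes, 3 rose in the double mutant against WT by the likelihood ratio test, beside 10.01% of all loci, and 2 by the quasi-likelihood test, beside 7.31%. No gene of this list fell. SPX1 (AT5G20150), a phosphate sensor that binds PHR1, had 4.52 and 3.65 CPM in WT, 2.46 and 4.75 in urt1-1, 7.69 and 10.7 in xrn4-3, and 25.4 and 13.8 in urt1-1 xrn4-3. It rose 4.75-fold against WT (log2 fold change 2.25, SE 0.46, edgeR adjusted p = 8.16e-05). PHR1 (AT4G28610), the transcription factor of the phosphate starvation response, had 5.33 and 4.27 CPM in WT and 13.03 and 12.7 in the double mutant, a 2.67-fold rise (edgeR adjusted p = 0.0049). Without WT replicate 1, WT replicate 2 or urt1-1 xrn4-3 replicate 1 the call for PHR1 was lost, with log2 fold changes of 1.59, 1.27 and 1.30.

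The other phosphate calls were near the threshold. PHO1 (AT3G23430), which exports phosphate into the xylem, rose 2.38-fold in the double mutant against WT (log2 fold change 1.25, SE 0.44, edgeR adjusted p = 0.042), and its adjusted p was 0.0859 by the quasi-likelihood test. Leaving out any 1 of the WT or double mutant libraries ended this call, with log2 fold changes from 0.97 to 1.56. The PHO1 call was also lost by DESeq2, with RLE scaling and with library size only. PHT1;4 (AT2G38940), a phosphate importer, rose 2.85-fold in xrn4-3 against WT (log2 fold change 1.51, SE 0.49, edgeR adjusted p = 0.049), with an adjusted p of 0.146 by the quasi-likelihood test. The call was lost when any 1 library other than xrn4-3 replicate 1 was left out, with log2 fold changes from 1.02 (without xrn4-3 replicate 2) to 2.04 (without WT replicate 1). It was also lost by DESeq2, with RLE scaling and in a fit of only the genotypes compared.

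Over the 47 genes of these lists, 8 rose in urt1-1 xrn4-3 against WT (11.1% of all loci were called), 6 against urt1-1 (9.28%), 4 in xrn4-3 against WT (4.45%), and 0 in urt1-1 against WT, in urt1-1 xrn4-3 against xrn4-3 or in the interaction. In these last 3, 1, 4 and 0 genes had an unadjusted p under 0.05 by the likelihood ratio test in edgeR, and the quasi-likelihood test and DESeq2 called 0. Seen after testing, these were NLA in urt1-1 against WT, and APS2, SPX1, APR1 and APR3 in the double mutant against xrn4-3. No gene of the lists fell in any comparison. Without urt1-1 replicate 1 the calls against urt1-1 went from 6 to 2.

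**Figure D4:**
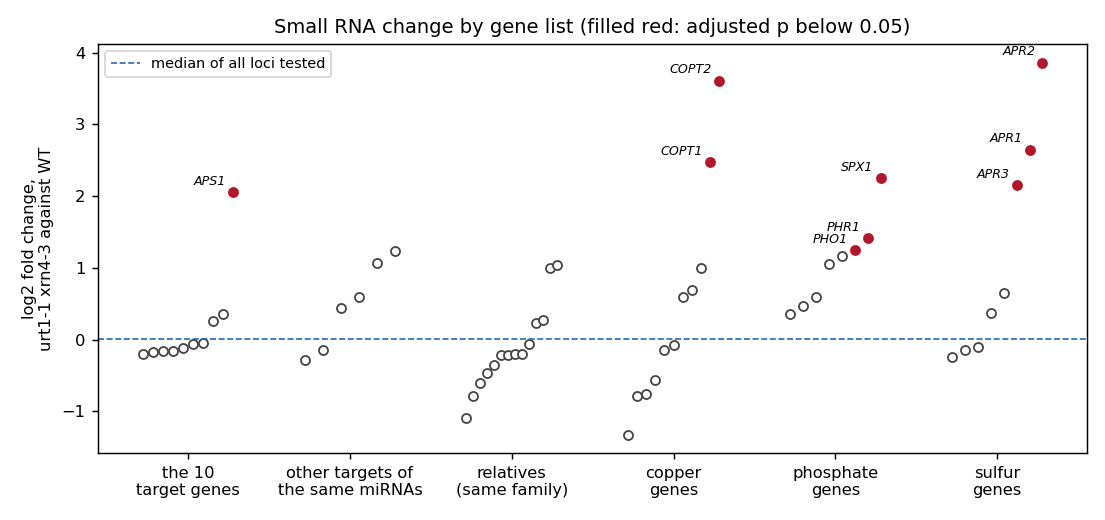
Log2 fold changes in urt1-1 xrn4-3 against WT for the 10 target genes and for the 47 other genes, by list. Each point is 1 gene, red and named where the adjusted p was below 0.05, and the dashed line is the median of all loci tested (0.01). The called genes are APS1 among the 10 and 8 of the others, with APR2 (3.86) and COPT2 (3.61) the highest.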

How the data were processed

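The authors deposited raw counts of small RNA reads per mRNA locus for 8 libraries, made from RNA of 18 to 30 nt. Per the labels and the study's methods, trimmed reads of 14 to 30 nt were mapped to TAIR10 with Bowtie 1.0.0 (up to 1 mismatch, best alignments kept, reads with over 50 loci discarded) and counted with bedtools 2.17.0 without regard to strand; base calling used CASAVA 1.8.2 and the study's own tests edgeR 3.26.5. Read lengths and strands were not in the table and were not analysed. The 8 deposited columns of normalized values were not used. The labels call the libraries of a genotype biological replicates, which the study describes in general as plants grown at different times.

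Counts were fitted in edgeR 4.0.16 (R 4.3.3) with all 8 libraries, TMM scaling, filterByExpr (minimum count 10) and a likelihood ratio test, with Benjamini-Hochberg adjustment over 24722 loci and a threshold of 0.05. The study names edgeR's negative binomial model and this adjustment, and its table of loci has a likelihood ratio column; the scaling and filter were chosen here. In all, 6 comparisons were made, the interaction included, and fold changes are those of the fit. Quasi-likelihood and DESeq2 1.42.0 tests, RLE scaling, no scaling factors, library sizes set to the reads mapped to the genome (from the study's read summary), no low-count filter, a fit of only the genotypes compared, a replicate block and each library left out were tried. The scripts were tested on simulated data. Intervals come from the fitted dispersion of each locus. The common dispersion over all loci gave a biological coefficient of variation of 0.325.

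All 10 targets are named. From the other lists (47 genes), those called in at least 1 comparison are named, at most 4 per list, and the 3 loci most like the target with the largest called change. The other targets of the same miRNAs are all named. Further list genes are named for an unadjusted p under 0.05 or a call added by another setting, after their values were seen. The 10 genes and the lists were chosen with earlier results of these data known. Leaving out 5p arms in the site search was chosen after seeing the data. Of 24859 loci, 24442 matched TAIR10.1 by locus code, which gave the sites.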

Additional observations from a re-analysis of the deposited data

How the results depend on the processing

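Of 950 refits of the 10 log2 fold changes, 908 kept their side of the threshold and moved by less than 1 standard error where not called, 39 moved by more, 2 lost a call, 1 gained one and 0 reversed a call. The number of the 10 genes called was 1 in urt1-1 xrn4-3 against WT and ran from 0 to 1 with a library left out (0 without WT replicate 2). Against urt1-1 it was 1, also ran from 0 to 1 (0 without urt1-1 replicate 1), and was 2 with genome-mapped reads as library sizes. It stayed at 0 in the other 4 comparisons under all alternatives run. The APS1 log2 fold change with a library left out ran from 1.79 to 2.25 against WT (adjusted p from 9.56e-04 to 0.109 in edgeR) and from 1.83 to 2.51 against urt1-1 (7.06e-04 to 0.162).

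The replicate block gave APS1 log2 fold changes of 2.06 against WT and 2.15 against urt1-1 (edgeR adjusted p = 9.47e-04 and 6.57e-04) and changed no call of the 10. The study describes biological replicates in general as plants grown at different times, but no source used here says that a number marks the same time in different genotypes. Deviations of same-numbered libraries correlated between 0.006 and 0.419 over genotype pairs, above 0.1 in 4 of 6. In urt1-1 xrn4-3 against WT, 8 of the 47 other genes were called, 6 to 9 with a library left out and 17 with genome-mapped sizes. Against urt1-1 these were 6, 2 to 8 and 16. The block added calls for PHR1 and PETE1 against urt1-1 (8 in place of 6), for APR1 against xrn4-3 (1 in place of 0) and for LAC7 in xrn4-3 against WT (5 in place of 4).

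Counts over all loci moved more. In xrn4-3 against WT 1099 loci were called, and 498 by quasi-likelihood. In urt1-1 xrn4-3 against WT these were 2734, and 4949 with genome-mapped sizes. Against urt1-1 2293 became 5177 with genome-mapped sizes. Against xrn4-3 504 became 42 by quasi-likelihood, 272 with library size only, 276 with only the genotypes compared and 778 with the block, and the raised share of these calls went from 84.7% to 69.9% with library size only and 96.0% with genome-mapped sizes. The interaction gave 30, and 0 by quasi-likelihood, 18 with genome-mapped sizes and 56 with the block. The 7 in urt1-1 against WT became 0 by quasi-likelihood and with genome-mapped sizes, 1 by DESeq2, 4 with library size only and 14 with only those genotypes. With a library left out the counts ran from 1 to 54 and from 475 to 1727 in urt1-1 and xrn4-3 against WT, from 1438 to 3324, 859 to 2836 and 222 to 1060 in the double mutant against WT, urt1-1 and xrn4-3, and from 11 to 174 in the interaction. The remaining library of that genotype is then assumed to vary like the others. The causes were not tested. Genes with 11 to 206 reads per library, CCS1 and the laccases among them, limit what small changes could be seen.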

Other observations

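Over the 8 libraries, the 3 loci whose log2(CPM + 1) was most like that of APS1 were AT3G04590 (r = 0.996), AT4G16447 (r = 0.996) and SUR1 (AT2G20610, r = 0.994), among 24403 loci with a mean of at least 10 reads. SUR1 encodes a C-S lyase of glucosinolate synthesis. Its reads were 13.2 and 10.8 CPM in WT, 9.55 and 12.2 in urt1-1, 14.6 and 17.2 in xrn4-3, and 36.5 and 32.9 in urt1-1 xrn4-3. AT3G04590 had 6.74 and 5.63 CPM in WT and 17.8 and 17.0 in the double mutant. These loci were picked as the highest of many and share the libraries and scaling of APS1, so the correlations are a description only.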
